A study of Mus musculus with 6 samples.

Results

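The loci described here are the microRNA genes of the mouse autosomes: all RefSeq genes of the biotype miRNA on chromosomes 1 to 19 in the build mm10, 1136 of 47038 RefSeq genes on those chromosomes. Each was taken with 1 kb on either side of the annotated hairpin, and the peaks of each library that overlapped this window by at least 1 bp were counted. Loci at most 10 kb apart were joined into 895 clusters, since neighbouring windows can hold the same peak. The annotated hairpin of 235 loci lay within 2 kb of an end of a protein-coding gene, and that of 901 lay farther away. A protein-coding gene enclosed 780 loci, only a long non-coding RNA gene enclosed 113, and 243 lay outside both.

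The source was the cardiac neural crest of E10.5 mouse embryos, profiled by chromatin immunoprecipitation with sequencing. The embryos came from Wnt1-Cre2 males and mTmG females, so that cells in which the Cre driver had acted, and their descendants, carried membrane GFP. GFP+ cells were sorted from pharyngeal arches 3 to 6. There were 3 groups, all from this genotype and stage: chromatin precipitated with an antibody to CHD7, chromatin precipitated with an antibody to H3K27ac, and input chromatin, each with 2 libraries. Wnt1-Cre2 marks the neural crest lineage together with the dorsal neural tube, and the sorted population can hold several crest derivatives. The sources do not say how many embryos were pooled or whether the libraries of a group came from separate sorts.

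MicroRNA genes are transcribed as long primary transcripts from their own promoters, from non-coding host genes or from the promoters of the protein-coding genes that enclose them. The hairpin in the transcript is excised in the nucleus, exported and trimmed to the mature strand, which recognises messenger RNAs mainly through its seed. The annotated hairpin therefore need not lie at the promoter. CHD7 is a nucleosome remodeller of promoters and enhancers, mutated in CHARGE syndrome, and H3K27ac is a histone modification of active promoters and enhancers. Loss of Dicer in the neural crest lineage is known to disturb craniofacial and cardiac development.

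The sequences below are those of mature microRNAs whose loci carried a peak in both libraries of an antibody and that the results turn on, grouped so that shared seeds can be seen. They are written 5′ to 3′ from RefSeq, GRCm38.p6, with the seed (bases 2 to 8) in capitals. The sequence table held 980 of the 1136 loci and 137 of the 148 with such a peak. The first 4 show the mesenchymal Mir199a-2, Mir199b and Mir214 loci, and the 3p strands of Mir199a-2 and Mir199b are the same sequence.
miR-199a-5p: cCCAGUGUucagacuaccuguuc
miR-199a-3p: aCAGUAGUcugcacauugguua
miR-199b-3p: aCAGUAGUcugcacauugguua
miR-214-3p: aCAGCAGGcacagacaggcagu
The next pairs share a seed between loci on different chromosomes, and were chosen because each locus held a recurrent peak. Among loci with a known mature sequence, the seed of miR-193a-3p occurs at 2 and that of miR-130a-3p at 7. The seed of miR-25-3p occurs at 5 and that of miR-34b-5p at 4. Among these known sequences, only the 2 loci printed for each seed had a recurrent peak. Mir34c and Mir301b also had recurrent CHD7, but only their miR-34c-3p and miR-301b-5p strands were known. Further loci with these seeds could therefore be missing from the counts.
miR-193a-3p: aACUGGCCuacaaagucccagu
miR-193b-3p: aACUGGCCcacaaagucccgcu
miR-130a-3p: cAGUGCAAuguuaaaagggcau
miR-130b-3p: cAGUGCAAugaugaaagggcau
miR-25-3p: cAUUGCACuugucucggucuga
miR-92b-3p: uAUUGCACucgucccggccucc
miR-34b-5p: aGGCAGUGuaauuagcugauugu
miR-449c-5p: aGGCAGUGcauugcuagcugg
The last are single loci described below for their peaks outside protein-coding gene ends.
let-7i-5p: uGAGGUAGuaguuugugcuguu
miR-129-5p: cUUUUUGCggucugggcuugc
miR-148a-3p: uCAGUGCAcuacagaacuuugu
miR-128-3p: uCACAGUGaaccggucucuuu
miR-210-3p: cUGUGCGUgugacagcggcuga
miR-17-5p: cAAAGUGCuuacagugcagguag

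CHD7 peaks lay in 153 windows (13.5%) of library 1 and 136 (12%) of library 2, and H3K27ac peaks in 140 (12.3%) and 131 (11.5%). The input libraries had peaks in 2 and 3 windows. As background, the autosomes were divided into tiles of 2080 bp, the median window length, of which 3.05% and 2.59% held a CHD7 peak of library 1 and 2. The share of tiles was 2.34% and 2.19% for H3K27ac and 0.028% and 0.0325% for the input. The share of microRNA windows was above that of the tiles in all 6 libraries, the input libraries included, where it was 0.176% and 0.264%.

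The mean share of windows was 12.7% ± 1.06 for CHD7, 11.9% ± 0.56 for H3K27ac and 0.22% ± 0.0622 for the input (SD, n = 2 each). CHD7 exceeded H3K27ac by 0.792 percentage points, a difference smaller than the spread of the CHD7 libraries (exact permutation test over libraries, two-sided, p = 0.667, adjusted p = 0.667 over 3 comparisons). CHD7 exceeded the input by 12.5 points and H3K27ac by 11.7, and all libraries of each antibody lay above both input libraries. These 2 differences gave p = 0.333 each in the exact permutation test (adjusted p = 0.5), the smallest p that 2 against 2 libraries allow. The lists held 31425 and 26600 autosomal peaks for CHD7, 23786 and 22244 for H3K27ac, and 417 and 475 for the input. A longer list reaches more windows wherever its peaks lie, so with the full lists these 3 differences cannot be told apart from list length. With the 10000 peaks of lowest q in each ChIP list, the mean share was 6.21% for CHD7 and 7.97% for H3K27ac, a difference of -1.76 points.

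A peak in both libraries of an antibody is called recurrent here. CHD7 was recurrent at 118 loci in 109 clusters, H3K27ac at 122 loci in 112 clusters, and both marks together at 92 loci. Among the tiles, 2.05% had recurrent CHD7, 1.8% recurrent H3K27ac and 1.24% both, against 10.4%, 10.7% and 8.10% of the microRNA windows. Recurrent CHD7 stood without an H3K27ac peak in either library at 19 loci. The converse, recurrent H3K27ac without CHD7 in either library, was seen at 11. At 941 loci no ChIP library had a peak in the window.

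Most recurrent peaks lay where a microRNA is close to the end of a protein-coding gene. Within 2 kb of such an end, 86 of 235 loci (36.6%) had recurrent CHD7, the same number had recurrent H3K27ac, and 71 (30.2%) had both. The tiles of that class gave 17.9%, 19.2% and 14.4%. Beyond 2 kb, 32 of 901 loci (3.55%) had recurrent CHD7, 36 (4.0%) recurrent H3K27ac and 21 both, beside 1.04%, 0.704% and 0.408% of the tiles of that class. Both classes of locus therefore lay above their tiles, and the tiles include sequence to which reads cannot be mapped. In single libraries the CHD7 peaks fell at 101 and 92 loci within 2 kb and at 52 and 44 beyond, and the H3K27ac peaks at 96 and 88 within and at 44 and 43 beyond.

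**Figure D1:**
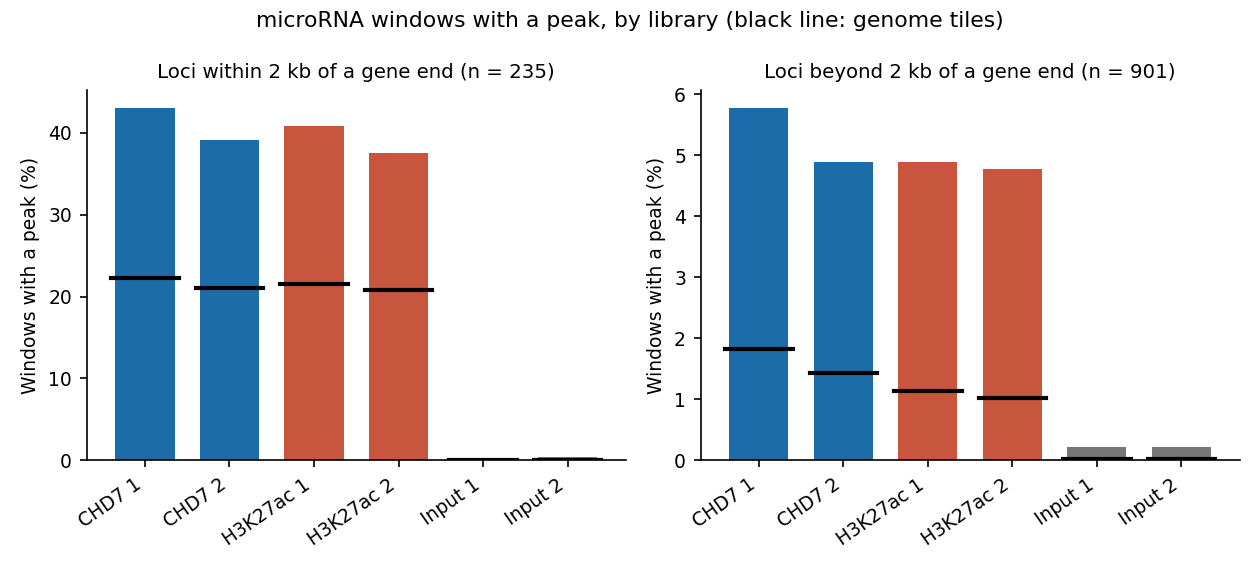
Percent of microRNA windows with at least 1 peak (vertical axis) in each library (horizontal axis), for the 235 loci within 2 kb of a protein-coding gene end on the left and the 901 loci beyond 2 kb on the right; black lines give the percent of genome tiles of the same class. All 4 ChIP libraries stand above their black line in both classes, and the vertical scales of the panels differ.

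Gene starts and 3′ ends differed in their shares. Of the loci within 2 kb, 108 were near an annotated start, 86 were near a 3′ end only and 41 were near a gene whose direction the tables did not give. At starts, 62.0% of loci had recurrent CHD7 and 62.0% recurrent H3K27ac, and 30.4% and 34.3% of the tiles at starts did. At 3′ ends the shares were 6.98% and 3.49%, with 3.24% and 1.33% of tiles. Within 500 bp of a start, 40 of 51 loci (78.4%) had recurrent CHD7 and 42 (82.4%) recurrent H3K27ac, and at 1001 to 2000 bp 40.5% and 45.2% of 42 loci did. The 15 loci between these ranges gave 66.7% for CHD7 and 40.0% for H3K27ac, and this H3K27ac share was the only one near starts that did not exceed its tiles, 42.9%.

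Away from gene ends, position inside or outside a gene also separated the loci. Of 604 loci inside a protein-coding gene, 2.65% had recurrent CHD7 and 2.81% recurrent H3K27ac, beside 1.26% and 0.937% of tiles. Of 297 loci outside protein-coding genes, 5.39% and 6.40% did, beside 0.901% and 0.549% of tiles. Within 2 kb of a start of a long non-coding RNA, 4 of 36 loci had recurrent CHD7 and 4 recurrent H3K27ac, 11.1% each, beside 5.58% and 5.11% of tiles, and 1 locus of that class had an input peak in both libraries. The remaining 865 loci, farther from annotated starts, gave 28 (3.24%) and 32 (3.70%), beside 0.981% and 0.643% of tiles.

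**Figure D2:**
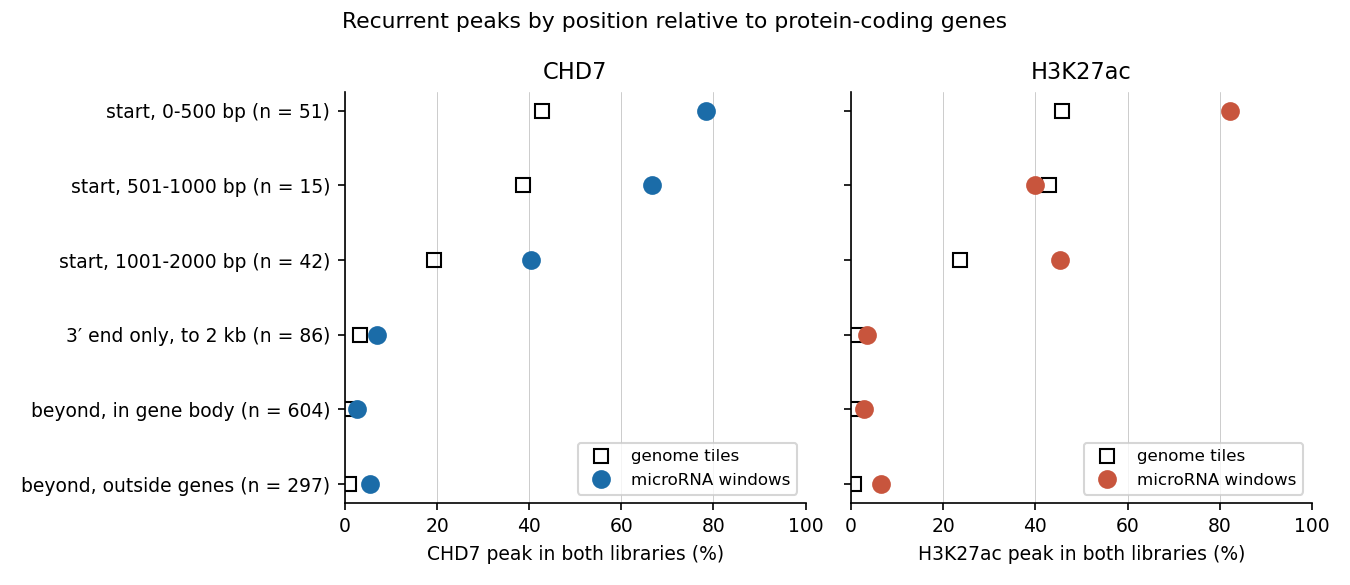
Percent of microRNA windows (filled circles) and of genome tiles (open squares) with a recurrent peak (horizontal axes) by position relative to protein-coding genes (vertical axis), for CHD7 on the left and H3K27ac on the right. Circles are highest within 500 bp of a start, at 78.4% and 82.4%, and lie below 7% in the 3 classes at the bottom.

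The number in a microRNA's name gives the order in which it was registered. Of 629 loci numbered 1000 or above, 75 (11.9%) lay at a protein-coding gene start, and of 461 numbered below 1000, let-7 genes included, 29 (6.29%) did. Recurrent CHD7 was found at 12.4% of the higher numbered loci and at 7.81% of the lower numbered ones. Within 2 kb of a gene end the shares were 41.2% and 28.4%, and beyond it they were 3.15% and 3.88%. The higher numbered loci thus had the larger share near gene ends and the smaller share farther away; the difference was not tested.

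The highest folds within 2 kb of a gene end were mostly at microRNAs less than 1 kb from it. Mir7238, at chr8:11635694-11635736 and 190 bp from an end of Ankrd10, had the highest mean fold of both antibodies in that class, with CHD7 fold enrichments of 5.77 and 7.02 and H3K27ac of 9.15 and 8.33. Fold enrichment is the authors' value at the highest peak of the window, given here in the order of library 1 and library 2, and it is read within an antibody only. Gm38670, within Hspb6, a small heat shock protein gene, had H3K27ac at 8.18 and 8.09 and CHD7 at 4.54 and 3.95. Mir8105, 414 bp from an end of Smarcc2, which encodes a subunit of the SWI/SNF remodelling complexes, had H3K27ac at 7.19 and 7.72 and CHD7 at 5.26 and 5.15. Of older microRNAs, Mir484, 348 bp from Marf1, had CHD7 at 6.06 and 5.79 and H3K27ac at 6.22 and 4.93. Mir423, inside Nsrp1, had CHD7 at 4.19 and 5.05 and H3K27ac at 7.26 and 6.34. In these 5 loci all 4 ChIP libraries had a peak and neither input library did.

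Of the 6 loci of the miR-34 and miR-449 families, 3 had recurrent CHD7, 2 recurrent H3K27ac and 3 no peak. Within 2 kb of a gene end lay 3 of the 6, and 36.6% of all loci of that class had recurrent CHD7 and 36.6% recurrent H3K27ac. Mir34b and Mir34c, targets of p53, are neighbours inside Btg4 and shared their peaks, CHD7 at 2.80 and 2.75 and H3K27ac at 4.19 and 5.04. The CHD7 peaks of the 2 libraries did not overlap each other there, so each was called in 1 library only. Mir449c, with the same seed as miR-34b-5p and a host, Cdc20b, linked to multiciliated cells, had CHD7 at 3.94 and 2.61 and no H3K27ac peak. Mir130b and Mir301b shared CHD7 at 3.54 and 3.63 and H3K27ac at 5.32 and 5.50. Mir25, in the Mcm7 intron cluster known for proliferating cells, had CHD7 at 2.44 and 3.77 and no H3K27ac peak in its window. It alone, of 9 loci of the miR-17 to miR-92 cluster and its paralogs, had recurrent CHD7, where 10.4% of all loci did. Its seed is that of Mir92b, whose window had CHD7 at 3.63 and 3.30 and H3K27ac at 3.18 and 3.60. Mir219a-1, 303 bp from Ring1, a Polycomb gene, had CHD7 at 2.46 and 2.26 and H3K27ac at 4.90 and 5.55. In the other locus that makes miR-219a-5p, Mir219a-2, CHD7 was recurrent at 2.08 and 2.48, and H3K27ac was found in library 1 only, at 2.88.

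Of the loci beyond 2 kb, the Dnm3os and Dnm1 microRNAs known from mesenchyme included loci with recurrent CHD7. Of 5 mesenchyme loci listed, in 4 clusters, 3 had recurrent CHD7 and 2 recurrent H3K27ac, where 3.55% and 4.0% of all loci beyond 2 kb did. Mir199b, inside Dnm1 at chr2:32318460-32318569, had CHD7 at 3.83 and 4.05 and H3K27ac at 3.37 and 3.59, with the highest summits upstream of the hairpin. H3K27ac peaks of both libraries also covered this hairpin, and CHD7 peaks did not. Mir199a-2, inside Dnm3 and the non-coding Dnm3os at chr1:162217814-162217923, had low folds, CHD7 2.17 and 2.05 and H3K27ac 2.53 and 2.69, and peaks that covered the hairpin. The start of Dnm3os gave the same folds. Of loci beyond 2 kb that lay within 2 kb of a long non-coding RNA start, 11.1% had each mark recurrently. Mir214 lies downstream in the same transcript and had CHD7 at 2.98 and 3.15, with summits 1707 and 1969 bp downstream of its hairpin, and no H3K27ac peak. Mir199a-1, inside Dnm2, had a CHD7 peak in library 1 only, at 2.45, and an H3K27ac peak in library 2 only, at 3.07. The sequences of miR-199a-3p and miR-199b-3p printed above are thus encoded at 2 loci with recurrent peaks and 1 without.

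The miR-193 family gave another such pair. Mir193a, at chr11:79711969-79712034, outside annotated genes, had CHD7 at 3.30 and 5.21 and H3K27ac at 3.72 and 4.02, with summits upstream of the hairpin. Mir193b, on chromosome 16, had CHD7 at 2.76 and 3.39, and no H3K27ac peak in its window. The start of its non-coding host Gm32817 had H3K27ac in library 2 only, at 3.56, and the same CHD7 folds. Mir148a, at chr6:51269812-51269910, had CHD7 at 4.53 and 3.40 and H3K27ac at 6.13 and 4.35, with all 4 summits between 777 and 803 bp upstream. Mir210, the hypoxia-induced microRNA, had CHD7 at 4.61 and 3.05 and H3K27ac at 4.89 and 4.89, and Mir203, an epidermal microRNA, CHD7 at 3.59 and 3.94 and H3K27ac at 5.19 and 4.18.

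Of the 10 let-7 loci, which restrain growth in differentiating cells, Mirlet7i was the only one with a peak of either antibody in any library. It had H3K27ac at 5.0 and 4.13 and CHD7 at 2.31 and 3.13, in the window around its hairpin at chr10:122985640-122985724. The remaining 9 windows had no peak. Over all loci beyond 2 kb, where the let-7 loci lie, 822 of 901 had no ChIP peak, so 1 of 10 is close to the share of the class.

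Some loci beyond 2 kb carried CHD7 alone. Mir129-1, outside genes at chr6:29022619-29022691, had the highest mean CHD7 fold beyond 2 kb among loci without an input peak, 5.26 and 5.01, from a peak with its summit 1290 and 1297 bp downstream, and no H3K27ac peak. Mir128-2, in Arpp21, a neuronal gene, had CHD7 at 3.60 and 4.11 and no H3K27ac peak. Mir145a, a smooth muscle microRNA in the non-coding Carmn on chromosome 18, had CHD7 at 2.11 and 2.85, with no H3K27ac peak. These folds stood at percentiles 1.31 and 27.3 of their lists. Of 3 loci listed for vascular smooth muscle, Mir145a alone had a ChIP peak. Of all 901 loci beyond 2 kb, 822 had no ChIP peak, and 3.55% had recurrent CHD7. Other loci carried H3K27ac with no recurrent CHD7. Mir17, the 5′ member of the miR-17 to miR-92 cluster, had H3K27ac at 3.30 and 3.20, with summits 1046 and 1180 bp upstream, and no CHD7 peak. Mir130a had H3K27ac at 2.84 and 3.17 and no CHD7 peak, whereas its seed mate Mir130b had both marks. Mir9-3, a neural microRNA, had H3K27ac at 3.71 and 3.35 and CHD7 in library 2 only, at 2.97. Mir125b-1, in Mir100hg, had H3K27ac at 2.69 and 2.42 and CHD7 in library 1 only, at 2.47, and Mir124a-3, a neuronal microRNA, H3K27ac at 2.26 and 2.27 and CHD7 in library 1 only, at 2.22. Mir6975, in Ddx39b, had H3K27ac at 5.82 and 5.75 and no CHD7 peak.

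**Figure D3:**
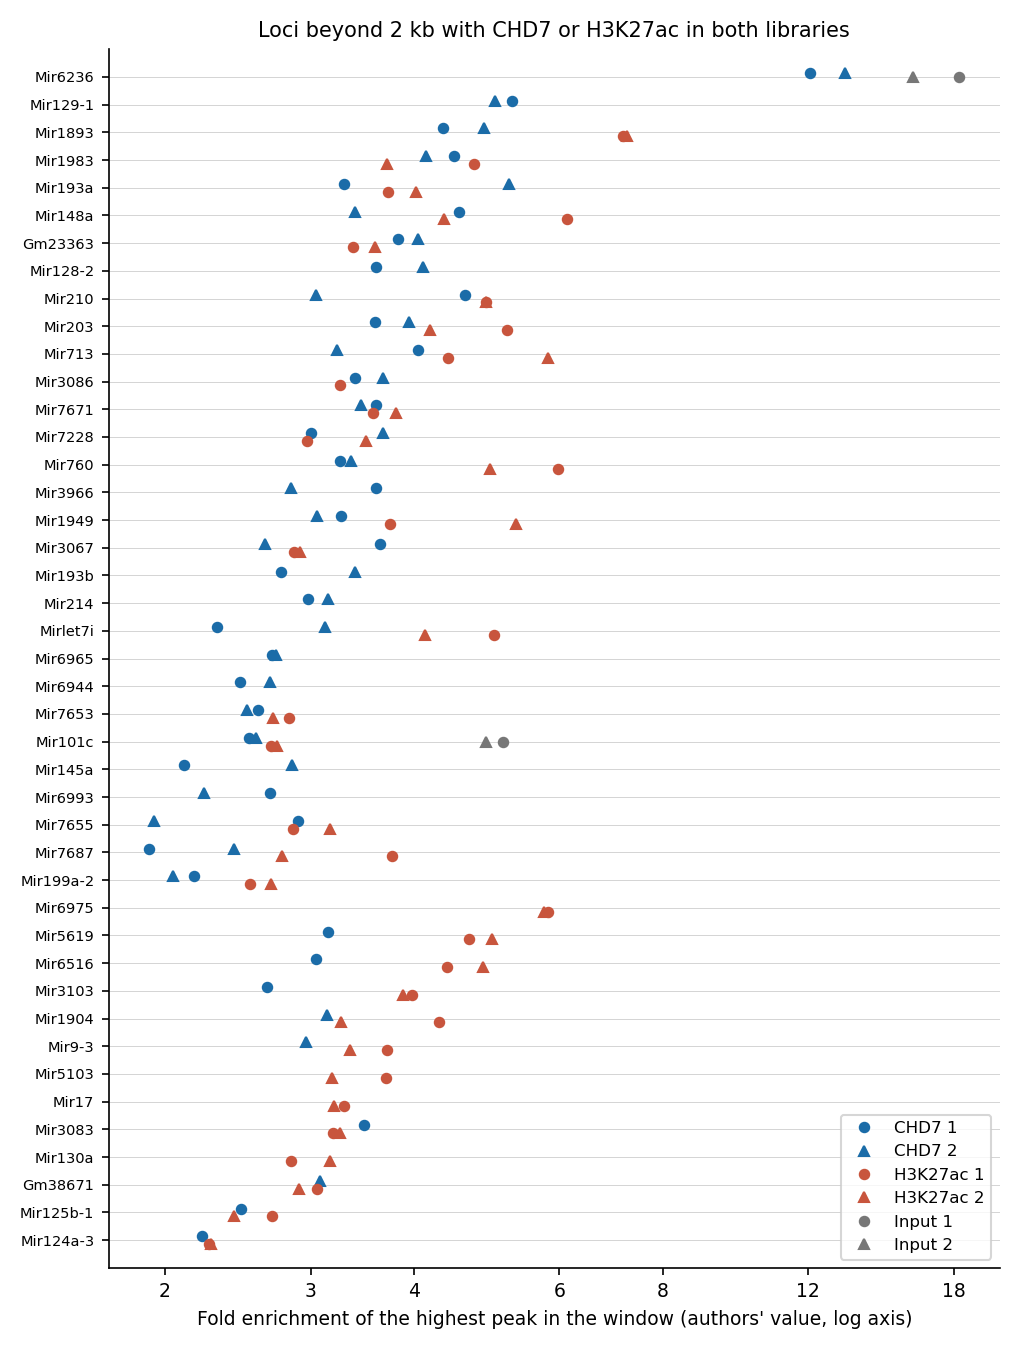
Fold enrichment of the highest peak in the window (horizontal axis, log scale, authors' values) for the loci beyond 2 kb with a recurrent peak (vertical axis, 1 locus of each cluster that shares its peaks, Gm23363 standing for Mir199b, ordered by mean CHD7 fold, then by mean H3K27ac fold), where circles are library 1, triangles library 2 and colours the antibody. Mir6236 and Mir101c are the only loci with grey input points, and the input points of both lie to the right of their ChIP points.

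Of the windows with an input peak, 2 were also recurrent for CHD7 and lay beyond 2 kb. Mir6236 had CHD7 at 12.06 and 13.28 and the input at 18.28 and 16.07, and no H3K27ac peak. Mir101c had CHD7 at 2.53 and 2.58, H3K27ac at 2.69 and 2.73 and the input at 5.12 and 4.89. Mir6546, in Fcgr3 and near a gene end, had input peak fold 5.93 in library 2, with CHD7 at 4.78 and 5.68 and H3K27ac at 3.83 and 3.91. The input folds were as high as those of the antibodies at these loci or higher, and their part in the CHD7 and H3K27ac peaks there was not tested.

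The highest H3K27ac fold beyond 2 kb belonged to Mir1893, inside Epc1 on chromosome 18, with 7.17 and 7.25 beside CHD7 at 4.34 and 4.86. Mir760 had H3K27ac at 5.98 and 4.94 and CHD7 at 3.26 and 3.36. Mir713 had H3K27ac at 4.40 and 5.82 and CHD7 at 4.05 and 3.23. Mir1983 had CHD7 at 4.47 and 4.13 and H3K27ac at 4.72 and 3.72. Mir6516, in the non-coding host Snhg20, and Mir5619, in Nudt9, had H3K27ac at 4.39 and 4.84 and at 4.66 and 4.97, and CHD7 in library 1 only.

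Recurrent peaks at loci beyond 2 kb had list ranks near the middle. Among the peaks of the same library, CHD7 folds at these loci had median percentiles of 57.4 and 52.4, and H3K27ac folds 53 and 46.1. At loci within 2 kb the medians were higher, 69.1 and 66.4 for CHD7 folds and 72.5 and 74.9 for H3K27ac folds. The peaks of the 2 libraries overlapped each other at all 32 CHD7 loci and all 36 H3K27ac loci beyond 2 kb, and at 80 of 86 and 86 of 86 within. They covered the hairpin itself in both libraries at 9 CHD7 and 16 H3K27ac loci beyond 2 kb, and at 39 and 56 within. Where the direction was known, H3K27ac summits beyond 2 kb lay upstream of the hairpin in both libraries at 21 of 31 loci and downstream at 7, and CHD7 summits upstream at 13 of 27 and downstream at 8.

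**Figure D4:**
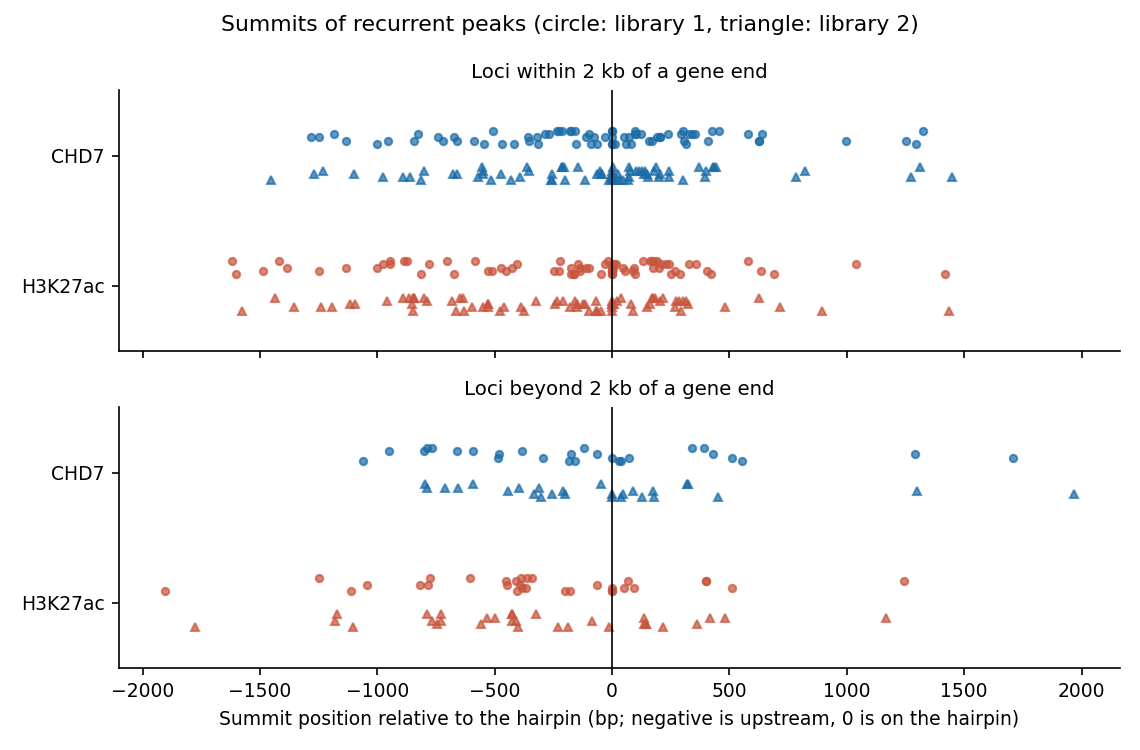
Position of the summit of the recurrent peak relative to the hairpin (horizontal axis, bp, negative is upstream) for CHD7 and H3K27ac (vertical axis), with circles for library 1 and triangles for library 2, for loci within 2 kb of a gene end (top) and beyond (bottom). In the bottom panel H3K27ac points lie mostly left of the line, 21 of 31 loci upstream in both libraries.

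Only the loci closest to each limit of the rule are named here, and they do not show how many loci lie near it. Mir5620, 1970 bp from an end of Clcn4, was the one just inside the 2 kb limit with a peak, both marks, while Mir677 at 1979 bp and Mir294 at 1998 bp had no recurrent peak. Mir7050 at 2014, Mir24-2 at 2021 and Mir3074-2 at 2035 bp, just beyond, had no recurrent peak. At the edge of the window, CHD7 peaks of Mir25 and Mir129-1 lay 968 and 978 bp from the hairpin, and peaks of Gm51271 and Mir191 lay 1006 and 1008 bp away and were not counted. For H3K27ac, Gm51291 and Mir6975 were counted at 992 and 997 bp, and Mir181c and Gm51271, at 1015 and 1023 bp, were not.

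Over all 1136 loci, 10.4% had recurrent CHD7 and 10.7% recurrent H3K27ac, so most small groups of microRNAs would hold few or no recurrent peaks. Of 26 groups, 17 had no recurrent peak of either antibody at a member. They include 10 muscle and heart microRNAs, 2 endothelial, 7 blood, 6 epithelial and 14 pluripotency microRNAs. Mir203, named above as epidermal and carrying both marks, was not in the epithelial group. The 8 loci of the miR-15 and miR-16 family had no recurrent peak, nor had the 8 of the miR-23, miR-27 and miR-24 clusters. The 58 loci of the Dlk1 to Dio3 imprinted cluster and the 81 repeats in the intron of Sfmbt2 also had none. They formed only 6 and 11 clusters, and all but 1 of these loci lay beyond 2 kb. Of all loci beyond 2 kb, 3.55% had recurrent CHD7 and 4.0% recurrent H3K27ac. Among the 13 neuronal microRNAs, in 11 clusters, 3 had recurrent CHD7 and 3 recurrent H3K27ac. In the miR-130, miR-301 and miR-148 group, 8 loci in 7 clusters, 3 had recurrent CHD7 and 4 recurrent H3K27ac. Within 2 kb of a gene end lay 3 of the 13 and 4 of the 8, and 36.6% of all loci there had each mark recurrently. Mir219a-2 and Mir219b are overlapping hairpins with the same CHD7 peaks, and Mir130b and Mir301b also shared theirs. Of the 6 Hox cluster microRNAs, Mir615 alone was called, with H3K27ac at 2.91 and 2.35. The hairpin need not lie at the promoter, so a window without a peak says nothing about the start of the transcript.

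The starts of the enclosing genes were therefore examined as well. A host was any gene that enclosed the hairpin, on either strand, so some hosts may not transcribe it. Mir199b and Mir199a-2, for example, lie on the strand opposite to Dnm1 and Dnm3. The 604 loci inside a protein-coding gene beyond 2 kb had 480 host genes, of which 392 had a known start. Within 1 kb of it, 238 (60.7%) had recurrent CHD7 and 254 (64.8%) recurrent H3K27ac, against 45.1% and 48.2% of all protein-coding genes with a known start. For the loci whose own window was empty the shares were 60.5% and 65.2% of 362 hosts. Some non-coding hosts had marks at their start while the hairpin window was empty: Mir22hg had CHD7 at 5.06 and 5.49 and H3K27ac at 5.11 and 5.25, and Mir670hg, host of Mir670, CHD7 at 3.17 and 3.35 and H3K27ac at 3.37 and 2.88. Dleu2, host of Mir15a and Mir16-1, had H3K27ac at 4.23 and 4.45 and CHD7 in library 2 only, at 2.22. Host genes were not matched to other genes for length or expression, whose part in these shares was not tested.

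Most genes that make and use microRNAs carried both marks at an end. Of 24 pathway genes, 21 had recurrent CHD7 and 21 recurrent H3K27ac within 1 kb of an end, against 47.2% and 49.4% of protein-coding genes. Drosha, the nuclear hairpin nuclease, had CHD7 at 3.98 and 4.07 and H3K27ac at 5.83 and 5.56, and Dgcr8, its partner in the DiGeorge interval, 3.67 and 3.29 and 5.58 and 3.95. Xpo5, the exporter, and Dicer1, the cytoplasmic nuclease, had CHD7 at 4.5 and 4.13 and at 4.53 and 3.87. Lin28a and Lin28b, which block let-7 maturation, had CHD7 at 2.69 and 2.58 and at 3.32 and 4.33, and H3K27ac at 4.26 and 3.40 and at 4.60 and 4.97. Tarbp2, Ago3 and Dis3l2 had no recurrent peak at an end.

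The labelled cell type was checked at the marker genes listed for it. Within 1 kb of an end, 3 of 8 neural crest markers had recurrent CHD7 (Ets1, Sox9 and Snai2) and 2 recurrent H3K27ac (Sox9 and Twist1), and of 8 crest mesenchyme markers 1 and 3 did. Markers of other cell types also had recurrent H3K27ac, namely 1 of 5 cardiomyocyte, 2 of 4 blood, 1 of 5 epithelial and 2 of 5 neuronal genes, and none of 5 endothelial genes. Recurrent CHD7 was found at 2 of 5 endothelial, 2 of 4 blood, 2 of 5 epithelial and 2 of 5 neuronal genes and at none of 5 cardiomyocyte genes. Of all protein-coding genes, 47.2% had recurrent CHD7 and 49.4% recurrent H3K27ac at an end, so both crest lists lay below the share of all genes for both marks. The make-up of the sorted cells was not tested.

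The GC content of the hairpin differed between the sets. Within 2 kb the median was 62.6% for loci with recurrent CHD7 and 54.1% for those with no CHD7 peak, and 61.8% and 54.4% for H3K27ac. Its part in the peaks was not tested. Beyond 2 kb fewer than 80% of the loci without a peak had a sequence in the table, so that comparison is void.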

How the data were processed

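Peak lists were analysed for 2 CHD7, 2 H3K27ac and 2 input libraries, each called on a single library. Per the submitters' processing notes, reads were handled with bcl2fastq 2.18.0.12, Bowtie2 2.3.3.1, Picard and MACS2 2.1.2 on mm10. Which control the peak caller was given was not stated in the labels or processing notes. The deposited lists give each peak a fold enrichment, a ratio over the authors' background. The authors' lists also give p- and q-values as −log10, and a score. Without read counts in the lists, sequencing depth is unknown, and precision rests on the agreement of 2 libraries. Nothing in the labels says that libraries of a group came from separate animals, so p-values measure the spread between these libraries, which may be technical.

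Summits listed separately for an interval were merged into 1 peak, keeping the highest fold and q. Gene coordinates came from the RefSeq table of GRCm38.p6, from which 20556 of 20661 autosomal protein-coding genes were used (105 starting below position 3000000 were left out); starts were known for 16456. Background tiles of 2080 bp, 1155607 in all, were classed by the same distance rule. The share of windows was compared between groups by an exact permutation test over libraries. Calculations used Python 3.11.15, pandas 2.3.3 and numpy 2.4.6, and were tested on simulated data. Loci were named by the highest mean folds (15 per antibody beyond 2 kb, 10 within), all input loci, listed groups and loci next to a limit. The loci and lists were chosen with earlier results of these data known, and the division by gene start, name number, host genes and X chromosome was made after seeing the files.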

Additional observations from a re-analysis of the deposited data

Results flagged for a closer look

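The rule covered the autosomes, and the X chromosome was not part of any comparison above. It holds 92 microRNA genes, of which 2 windows had CHD7 in both libraries (Mir351 and Mir7091) and 3 had H3K27ac in both (Mir5132, Mir718 and Mir7093). The input had no peak in those windows. No locus had both marks recurrently, and no cause was tested.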

How the results depend on the processing

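Of 87 counts recomputed under an alternative, 52 stayed within 1.5 times and 35 moved farther. Of 39 differences between shares, 35 kept their sign, 21 of them within 1.5 times, and 4 reversed. The difference of CHD7 minus H3K27ac, 0.792 points, became -1.36 with no flank, -2.42 and -3.21 for −log10 q of at least 5 and 10, and -1.76 with the 10000 peaks of lowest q in each ChIP list. It was 4.05 with a 5 kb flank, 0.044 without CHD7 library 1, 1.54 without CHD7 library 2, 1.19 without H3K27ac library 1 and 0.396 without H3K27ac library 2, so neither its sign nor its size is stable. CHD7 minus input, 12.5 points, ranged from 3.74 (q of at least 10) to 30.1 (5 kb flank), and H3K27ac minus input, 11.7, from 6.95 to 26.1 under the same settings; both stayed positive, and leaving out a library gave 11.8 to 13.2 and 11.3 to 12.1. With no flank the recurrent loci were 48 for CHD7, 72 for H3K27ac and 41 for both marks; 9 and 16 beyond 2 kb and 39 and 56 within. With a 5 kb flank they were 288, 268 and 220; 151 and 133 beyond, 137 and 135 within. A q of at least 5 left 69 CHD7 and 59 of both, with 17 beyond and 52 within for CHD7. A q of at least 10 left 30, 66 and 22; 7 and 12 beyond, 23 and 54 within. The 10000 peaks of lowest q left 51, 79 and 41, with 9 and 16 beyond and 42 within for CHD7. A limit of 1 kb for gene ends moved the counts beyond it to 51 and 58, and a peak in either library gave 64 CHD7 loci beyond. Leaving out CHD7 library 2 raised the CHD7 count beyond 2 kb to 52, and leaving out library 1 gave 44; peaks of the remaining library alone then suffice. Fewer peaks or wider windows change counts by construction. The counts within 2 kb were recomputed by alternatives chosen after seeing the data.

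The libraries share only a number in the labels. With a replicate block the differences were 0.792, 12.5 and 11.7 points. Each gave p = 0.5 in an exact sign-flip test of 2 pairs. That is the smallest p that 2 pairs allow, so no call could change. Of the 30 locus folds beyond 2 kb named by rank, 18 had no value with no flank, 18 for q of at least 10, 14 with the 10000 peaks of lowest q and 4 for q of at least 5. A summit required in the window removed 2 (Mir129-1 CHD7 and Mir6975 H3K27ac), and leaving out peaks that overlap an input peak removed 1 (Mir6236 CHD7).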
